A study of Mus musculus with 6 samples.

Results

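The deleted gene Hopx and 9 genes that lie beside it on mouse chromosome 5 (Spink2, Srp72, Paics, Ppat, Rest, Noa1, Aasdh, Polr2b and Igfbp7) were followed through the lungs of Hopx-null and wild-type embryos. Every probe set that the platform annotation assigns to exactly 1 gene was taken when that gene was one of these 10, which gave 22 of the 45037 probe sets tested. Rest was read by 4 probe sets, Paics, Ppat and Igfbp7 by 3 each, Hopx, Srp72 and Aasdh by 2 each, and Spink2, Noa1 and Polr2b by 1 each. RNA came from dissected whole lungs of E16.5 mouse embryos (the number is the embryonic day) on a mixed strain background. Both groups shared that stage, tissue and background, and differed in genotype: 3 lungs were Hopx -/- and 3 were Hopx +/+. Each was a separate biological replicate on its own single-channel Affymetrix array. The groups also differed in sex-linked signal: Y-linked genes were high and Xist low only in wild-type replicates 2 and 3. The sources used here give neither the bases that the null allele lacks nor where in the Hopx transcript its probes lie. Values are deposited expression levels read as log2, so that a difference of 1 is a doubling. Levels of different probe sets are not comparable with each other, because each has its own probes. Identifiers ending in _x_at mark probe sets with probes that may also match other sequences, and those ending in _s_at mark probe sets shared by several transcripts.

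Hopx is a small protein with a homeodomain that does not bind DNA. It works by joining other factors, among them serum response factor and histone deacetylases, and in the lung it is best known as a marker of type I alveolar cells, the thin cells through which gas is exchanged. Its neighbours have unrelated roles. Rest represses neuronal genes outside neurons, Ppat and Paics are enzymes of purine synthesis, Srp72 is part of the particle that guides new proteins to the endoplasmic reticulum, Polr2b is a core subunit of RNA polymerase II, Noa1 is a mitochondrial GTPase, Aasdh belongs to the acyl-CoA synthetase family, Spink2 is an inhibitor of serine proteases and Igfbp7 is a secreted protein that binds insulin-like growth factors and is abundant around blood vessels. Genes on each side of a targeted gene are of interest in a knockout because they are inherited together with the altered allele.

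RefSeq gives Hopx start sites at 2 places, and the sequences before them are shown because they belong to the gene that is lost. The sequence before the start of Spink2 is shown because Spink2 stood apart from the other neighbours, and that of Igfbp7 because its Hopx-null values lay above its wild-type values without overlap. RefSeq gives Spink2 3 starts close together, of which the most upstream is shown. Each is the 250 bases that precede a RefSeq start in assembly GRCm38.p6, on the minus strand, written 5′ to 3′. Capitals mark matches on either strand to the CArG box of serum response factor, the GC box (GGGCGG), the CCAAT box (CCAAT), the TATA box (TATAAA), the E-box (CACGTG) and the cyclic AMP response element (TGACGTCA), and no match overlapped another.
Hopx, upstream start, chr5:77115124-77115373: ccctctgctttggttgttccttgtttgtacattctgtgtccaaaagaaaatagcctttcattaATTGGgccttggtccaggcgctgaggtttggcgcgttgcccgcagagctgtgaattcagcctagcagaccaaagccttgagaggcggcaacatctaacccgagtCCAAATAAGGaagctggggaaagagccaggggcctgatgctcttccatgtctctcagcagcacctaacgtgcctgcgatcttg
Hopx, downstream start, chr5:77095268-77095517: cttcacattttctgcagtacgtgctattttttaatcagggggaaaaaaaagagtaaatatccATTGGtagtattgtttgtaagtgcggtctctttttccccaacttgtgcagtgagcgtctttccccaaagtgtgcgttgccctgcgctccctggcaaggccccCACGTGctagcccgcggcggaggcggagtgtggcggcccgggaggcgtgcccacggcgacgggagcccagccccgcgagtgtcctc
Spink2, chr5:77211472-77211721: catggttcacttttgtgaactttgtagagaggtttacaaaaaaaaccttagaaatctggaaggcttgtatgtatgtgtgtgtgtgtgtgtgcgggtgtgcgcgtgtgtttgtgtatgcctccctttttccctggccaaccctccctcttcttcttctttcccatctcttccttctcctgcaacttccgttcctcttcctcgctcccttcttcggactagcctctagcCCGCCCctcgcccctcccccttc
Igfbp7, chr5:77408046-77408295: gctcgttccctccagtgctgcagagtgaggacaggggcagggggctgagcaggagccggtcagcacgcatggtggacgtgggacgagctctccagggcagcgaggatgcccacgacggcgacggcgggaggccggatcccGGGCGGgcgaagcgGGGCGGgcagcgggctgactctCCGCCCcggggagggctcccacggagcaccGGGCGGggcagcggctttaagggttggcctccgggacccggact

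The window before the upstream Hopx start held 1 CArG box, found in 1.47% of 32851 windows of this length, and 1 CCAAT box, found in 33.8%. Before the downstream start there was 1 E-box, found in 6.02% of windows, and again 1 CCAAT box. G and C made up 52.4% of the upstream window and 57.6% of the downstream one, against a median of 52.4% over all windows. The Igfbp7 window reached 74% and held 4 GC boxes, and the most upstream Spink2 window had 51.2% and 1 GC box, a motif found in 32.7% of windows. The 2 other Spink2 windows had 59.2% and 60.4% and held none of the motifs searched. Such matches describe the letters of these windows only. Windows were available for 8 of the 10 genes, all but Rest and Noa1. The 5′ ends of Ppat and Paics overlap in RefSeq on opposite strands.

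Hopx was lower in every Hopx-null lung at both of its probe sets. At 1451776_s_at the 3 wild-type lungs read 10.96, 10.59 and 10.41 and the Hopx-null lungs 4.59, 4.59 and 4.96. All wild-type lungs thus lay at least 5.45 above all Hopx-null lungs on the log2 scale. At 1428662_a_at the wild-type lungs read 12.50, 12.44 and 12.26 and the Hopx-null lungs 10.64, 10.35 and 10.47, a gap of 1.61 between the groups. The lungs of each genotype were close together at both probe sets, with SDs of 0.13 to 0.28.

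The log2 difference (Hopx-null minus wild-type) was -5.94 at 1451776_s_at (95% interval -6.35 to -5.52, limma eBayes with Benjamini-Hochberg over all probe sets, adjusted p = 0.000375). At 1428662_a_at it was -1.91 (95% interval -2.18 to -1.64, limma eBayes with Benjamini-Hochberg, adjusted p = 0.0228), so that 26.6% of the wild-type signal remained in Hopx-null lungs (95% interval 0.220 to 0.321 as a ratio). These 2 of the 22 probe sets were called, both lower. Over all probe sets 0.00444% were called. The call at 1428662_a_at was lost without Hopx-null replicate 2 (difference -1.84) or replicate 3 (-1.90) and without wild-type replicate 2 (-1.89) or replicate 3 (-1.98), with limma adjusted p between 0.103 and 0.413, while that at 1451776_s_at was kept whichever lung was left out.

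The probe sets of Hopx fell by unequal amounts. Within each lung the value at 1451776_s_at minus that at 1428662_a_at was -1.55, -1.85 and -1.85 in wild-type replicates 1 to 3, and -6.05, -5.76 and -5.51 in the Hopx-null replicates. The mean went from -1.75 ± 0.17 (SD, n = 3) to -5.77 ± 0.27 (SD, n = 3). The shift of -4.03 was thus many times the spread among lungs of a genotype. The Hopx-null values at 1451776_s_at, 4.59 to 4.96, were not far above the lower quartiles of the arrays, 4.24 to 4.30. At such levels background limits how well the size of a difference is measured. An exact two-sided permutation test gave p = 0.1, the smallest value that 3 against 3 lungs allow. Among the lungs, wild-type replicate 1 was highest at both probe sets and wild-type replicate 3 lowest of the wild-type lungs at both. The Hopx-null lungs did not keep 1 order: replicate 1 was highest at 1428662_a_at and replicate 3 at 1451776_s_at.

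Markers of type I alveolar cells, the cells that Hopx marks, were present in all lungs. Of 15 such genes, 12 were higher and 3 lower in Hopx-null lungs. By limma 0 were called, against 0.0055% of all genes, and 0 had an unadjusted p under 0.05, against 4.54%. Their median difference was 0.12, against 0.01 over all genes. The mean log2 level of the list was 11.72 to 11.77 in Hopx-null lungs. It was 11.78, 11.77 and 11.36 in wild-type replicates 1 to 3, so the ranges overlapped and only wild-type replicate 3 stood below the Hopx-null lungs. The receptor gene Ager, itself a defining marker, read 13.41, 13.40 and 13.42 in Hopx-null and 13.38, 13.34 and 13.10 in wild-type lungs. In whole-lung RNA, fewer cells of a type and less RNA per cell cannot be told apart.

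**Figure D1:**
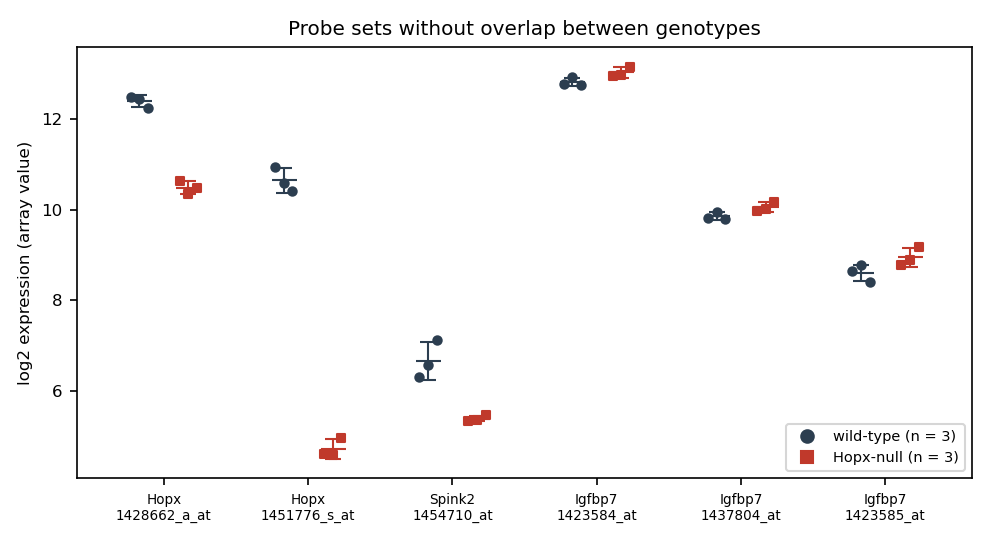
Log2 array value (y axis) of each lung at the 6 probe sets of Hopx, Spink2 and Igfbp7, with wild-type lungs as circles and Hopx-null lungs as squares; horizontal lines and bars give the mean and SD of 3 lungs. Hopx and Spink2 are separated by gaps of 0.84 or more, whereas the gaps at Igfbp7 are 0.033 or less.

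Over the 20 probe sets of the 9 neighbours, 9 were higher and 11 lower in Hopx-null lungs, and 0 were called by limma with Benjamini-Hochberg adjustment. An unadjusted p under 0.05 was reached by 1 of the 20, against 4.77% of all probe sets. The groups did not overlap at 4 of the 20 (20%), against 10.1% of all probe sets. Of these 4, 3 were higher in Hopx-null lungs, all of them Igfbp7, against 5.6% of all probe sets, and 1 was lower, Spink2, against 4.54%.

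Spink2, the nearest measured gene on one side of Hopx, had the largest difference among the neighbours. Spink2 encodes a Kazal-type inhibitor of serine proteases, known from male germ cells and from blood progenitors. Its single probe set, 1454710_at, read 6.30, 6.57 and 7.12 in wild-type replicates 1 to 3 and 5.34, 5.36 and 5.46 in the Hopx-null replicates. The lowest wild-type lung was 0.84 above the highest Hopx-null lung. The log2 difference was -1.28 (SE 0.20, 95% interval -1.76 to -0.79), or 41.3% of the wild-type level. Its unadjusted p of 0.000492 was the 11th smallest of 45037, and the limma adjusted p was 0.878, so it was not called after Benjamini-Hochberg correction. All 3 Hopx-null lungs were lower than all 3 wild-type lungs. The Hopx-null lungs were close together (SD 0.063), and the wild-type lungs were spread more widely (SD 0.42).

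The mean of Spink2 was 5.39 ± 0.06 (SD, n = 3) in Hopx-null and 6.66 ± 0.42 (SD, n = 3) in wild-type lungs. The direction was kept when any 1 lung was left out, and the difference lay between -1.46 (wild-type replicate 1 left out) and -1.05 (wild-type replicate 3 left out). Wild-type replicates 2 and 3, which had the higher Spink2 values, were also the lungs with signal from Y-linked genes: the mean of the Y-linked genes was 9.24 and 9.12 there and 2.47 to 2.57 in the other 4 lungs. The same 2 lungs had the highest mean of the cartilage markers, 7.49 and 7.78, against 5.23 to 6.28 in the other 4. The part of the cartilage signal in the Spink2 values was not tested. With the mean of the Y-linked genes as a covariate the Spink2 difference was -0.91 (limma eBayes, Benjamini-Hochberg, adjusted p = 0.9999). All 3 Hopx-null lungs and wild-type replicate 1 lacked Y-linked signal, so it was partly confounded with genotype.

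Lists of genes from the cells in which Spink2 is known were read beside it, and 4.54% of all genes had an unadjusted p under 0.05. Blood progenitor and myeloid markers averaged 10.13 to 10.26 in Hopx-null and 10.19 to 10.29 in wild-type lungs, and 0 of 10 had an unadjusted p under 0.05. Germ cell markers averaged 4.40 to 4.58 and 4.33 to 4.58, where the lower quartiles of the 6 arrays were 4.24 to 4.30, with 1 of 8 at an unadjusted p under 0.05.

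Other protease inhibitors of the Spink family were measured as well. Of 7 measured family members, Spink2 included, 0 passed, 3 were higher and 4 lower, with a median of -0.28. Besides Spink2, only Spink1, the pancreatic trypsin inhibitor, had an unadjusted p under 0.05. It read 4.55, 7.95 and 6.61 in wild-type replicates 1 to 3 and 4.39, 4.04 and 4.82 in the Hopx-null replicates, for a difference of -1.95 (SE 0.79, limma adjusted p = 0.878). Its high values were those of wild-type replicates 2 and 3, the lungs with Y-linked signal and the highest cartilage markers, and the groups overlapped. Spink5, an inhibitor of skin proteases, ranged from 7.03 to 10.57 in Hopx-null and from 8.33 to 11.20 in wild-type lungs and differed by -0.63 (SE 1.11).

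Igfbp7 differed in the other direction, by a small amount that was not called. The brightest of its probe sets, 1423584_at, read 12.78, 12.92 and 12.76 in wild-type and 12.96, 12.98 and 13.16 in Hopx-null replicates. At 1437804_at the values were 9.83, 9.95 and 9.80 against 9.96, 10.02 and 10.18. At 1423585_at they were 8.64, 8.77 and 8.41 against 8.77, 8.89 and 9.18. The Hopx-null lungs lay above the wild-type lungs at each probe set, but the gaps between the nearest lungs were 0.033, 0.0091 and 0.0038, far below the SD within a genotype (0.084 to 0.21). The differences were 0.21 (95% interval -0.02 to 0.45), 0.19 (95% interval -0.04 to 0.43) and 0.34 (95% interval -0.0039 to 0.69), each with a limma adjusted p of 0.878. Hopx-null replicate 3 was the highest lung at all 3 probe sets. In the same lung the actin control signal at the 3′ end exceeded that at the 5′ end by 1.51, against 1.15 to 1.25 in the other lungs. Without it the differences were 0.15, 0.13 and 0.22. The part of the 3′ to 5′ difference in the Igfbp7 values was not tested.

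The 3 probe sets measure the same RNA of the same lungs and are not independent. Of 2366 genes with exactly 3 probe sets, 9 (0.38%) had all 3 higher in Hopx-null lungs with no overlap, a count that was made after the Igfbp7 values were seen. Of genes in its family, Igfbp7 included, and of its partners, 13 were measured, with 0 called. Of these, 7 were higher and 6 lower, with a median of 0.00. The largest differences were those of Esm1, a proteoglycan of endothelial cells, at 1.30 (SE 0.61), and Igfbp3, another growth factor binding protein, at -0.78 (SE 0.34). Both overlapped between groups, and Esm1 read 7.71, 6.73 and 5.12 in wild-type and 7.56, 8.23 and 7.67 in Hopx-null replicates. Cd93, a receptor of endothelial cells that binds Igfbp7, differed by 0.0019 (95% interval -0.18 to 0.18). Endothelial markers averaged 11.01 to 11.11 in Hopx-null and 10.99 to 11.06 in wild-type lungs, with 6 of 10 higher. Smooth muscle markers averaged 9.72 to 10.01 and 9.69 to 10.01, with 4 of 8 higher. Their part in the Igfbp7 values was not tested.

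The other 7 neighbours are those left after Spink2 and Igfbp7, the neighbours without overlap, were set apart. By that choice the groups overlapped at all of their 16 probe sets, and 10.1% of all probe sets did not overlap. Their differences ranged from -0.12 to 0.19, and the 95% intervals together spanned -0.38 to 0.54. The limma adjusted p-values lay between 0.879 and 0.998. The median absolute difference over all 20 probe sets of the 9 neighbours was 0.092, against 0.10 over all probe sets.

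**Figure D2:**
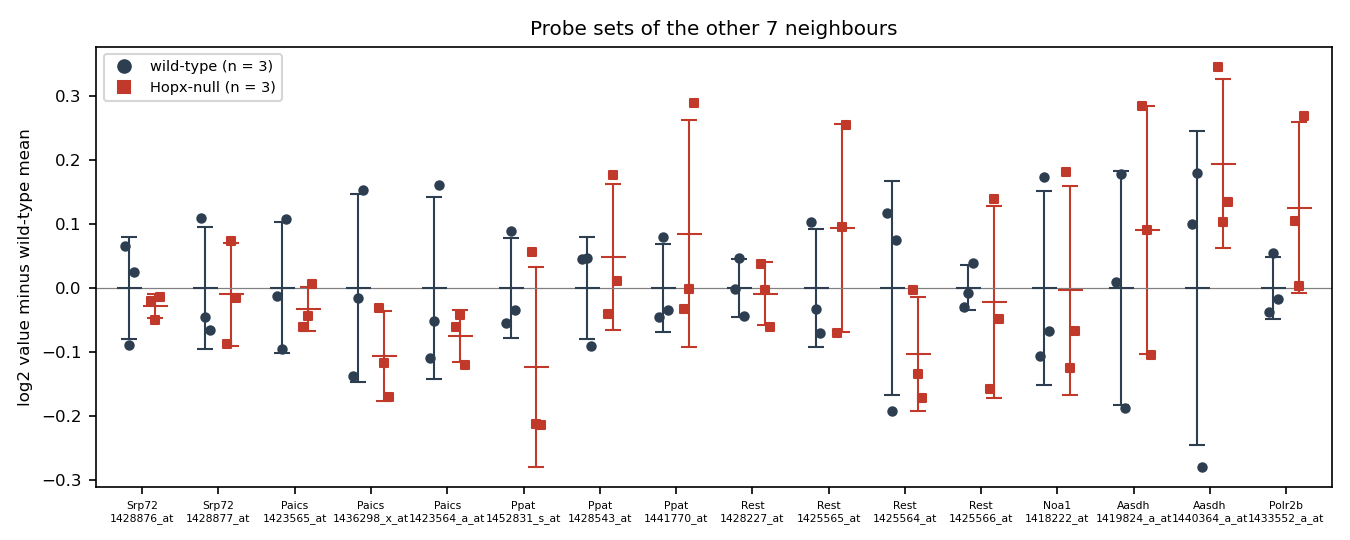
Log2 value of each lung minus the wild-type mean of that probe set (y axis) for the 16 probe sets of the 7 neighbours other than Spink2 and Igfbp7; circles are wild-type and squares Hopx-null lungs, with mean and SD of 3 lungs. The groups overlap at every probe set shown, because the neighbours without overlap were left out.

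Rest, the repressor of neuronal genes, was read by 4 probe sets. At 1428227_at, the brightest, the lungs read 12.26, 12.31 and 12.22 in wild-type and 12.30, 12.26 and 12.21 in Hopx-null replicates. The spread within genotypes was smaller at only 3.76% of all probe sets, and the difference was -0.01 with a 95% interval of -0.20 to 0.18, a ratio of 0.870 to 1.14. At 1425565_at the wild-type lungs read 10.43, 10.29 and 10.25 and the Hopx-null lungs 10.25, 10.42 and 10.58, for a difference of 0.09 (95% interval -0.17 to 0.36). The other 2, 1425564_at and 1425566_at, were dim, with means between 4.75 and 4.98, and differed by -0.10 and -0.02.

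Genes that work with Rest and genes known to be repressed by it were listed separately. Of 14 measured cofactors, including Rest, 8 were higher and 6 lower with 0 called and a median of 0.01. The largest differences were those of the deacetylase Hdac2 at -0.35 (SE 0.32) and the corepressor Rcor2 at 0.18 (SE 0.15). Hdac2 read 9.50 in Hopx-null replicate 3 and 10.56 to 10.78 in the other lungs. Of 21 known targets, 5 were higher and 16 lower, with a median of -0.10 against 0.01 over all genes, and 0 were called. Among the lower ones, Scn2a, Syn1, Nefm, Gria2 and Chrm4 were dim. Their genotype means of 3.22 to 3.92 lay below the lower quartiles of the arrays, 4.24 to 4.30. Chga, a protein of secretory granules, read 5.95, 6.29 and 5.79 in wild-type and 5.69, 5.26 and 5.38 in Hopx-null replicates, a difference of -0.57 (SE 0.17, limma adjusted p = 0.878) without overlap. Syp, a protein of synaptic vesicles, was the other target without overlap, and it was named after its values were seen. It read 6.32, 6.49 and 6.49 in wild-type and 6.58, 6.63 and 6.80 in Hopx-null replicates, a difference of 0.24 (SE 0.10). The neurofilament gene Nefl differed by -0.56 (SE 0.51) with overlap. Neuronal markers as a list were lower in 8 of 9 genes. Their mean level ran from 5.47 to 6.14 in Hopx-null lungs and was 5.46, 6.11 and 6.44 in wild-type replicates 1 to 3. The Rest targets averaged 5.38 to 5.69 in Hopx-null lungs and 5.43, 5.64 and 5.77 in wild-type replicates 1 to 3. Wild-type replicates 2 and 3 were the lungs with Y-linked signal and the highest cartilage markers. The part of the neuronal markers in the values of the Rest targets, with which they share genes, was not tested.

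Ppat and Paics catalyse separate steps of purine synthesis, Ppat the committing one. At 1452831_s_at Ppat read 9.49, 9.63 and 9.51 in wild-type and 9.60, 9.33 and 9.33 in Hopx-null replicates, for a difference of -0.12 (95% interval -0.38 to 0.13). Its probe set 1428543_at read 8.74, 8.74 and 8.61 against 8.66, 8.88 and 8.71 and differed by 0.05, so the sign was not shared. The remaining one, 1441770_at, lay between 2.46 and 2.80 in all lungs, below the lower quartile of the arrays. Paics read 11.33, 11.25 and 11.45 in wild-type and 11.28, 11.30 and 11.35 in Hopx-null replicates at 1423565_at, a difference of -0.03 (95% interval -0.25 to 0.18). At 1436298_x_at and 1423564_a_at it differed by -0.11 and -0.07. Wild-type replicate 3 was the highest of the 6 lungs at all 3 Paics probe sets and the lowest at 1428543_at of Ppat. In the whole pathway 12 genes were measured, 7 higher and 5 lower, with 0 called and a median of 0.06. The largest differences among the other enzymes were 0.15 (SE 0.15) for Adssl1 and -0.13 (SE 0.08) for Adsl, and Adsl did not overlap between groups.

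Srp72 holds the signal recognition particle together with Srp68. It read 10.71, 10.56 and 10.67 in wild-type and 10.62, 10.60 and 10.63 in Hopx-null replicates at 1428876_at, a difference of -0.03 (95% interval -0.23 to 0.17). At 1428877_at the difference was -0.01 (95% interval -0.23 to 0.21). The Hopx-null lungs differed by 0.019 (SD) among themselves at the former, the smallest SD within a genotype of any member probe set. Of 8 measured genes of the particle and its receptor, 5 were higher and 3 lower, with 0 called and a median of 0.02. Srp54b, which has near-identical copies, differed by 0.55 (SE 0.40), and the receptor gene Srpr by 0.04 (SE 0.08).

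Polr2b lies next to Igfbp7, and the ends of the RefSeq models of these genes overlap. It read 10.41, 10.50 and 10.43 in wild-type and 10.55, 10.45 and 10.72 in Hopx-null replicates. The difference of 0.13 (95% interval -0.11 to 0.36) was of the size of the SD within the Hopx-null lungs (0.13). Of 11 measured subunits of RNA polymerase II, 6 were higher and 5 lower with 0 called, and Polr2b itself had the largest difference, ahead of Polr2m at 0.08 (SE 0.09) and Polr2d at 0.08 (SE 0.10).

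Noa1 takes part in assembly of the mitochondrial ribosome. It read 9.37, 9.65 and 9.41 in wild-type and 9.66, 9.35 and 9.41 in Hopx-null replicates, a difference of -0.0039 (95% interval -0.30 to 0.29). Within each genotype 1 lung stood above the other 2. Of 12 measured genes of mitochondrial ribosome assembly and translation, 8 were higher and 4 lower, with a median of 0.06 and 0 called, and the largest differences were 0.16 (SE 0.11) for Mrrf and 0.13 (SE 0.13) for Gfm1.

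Aasdh had the widest spread within genotypes of these 7 genes. At 1419824_a_at it read 10.45, 10.62 and 10.26 in wild-type and 10.73, 10.54 and 10.34 in Hopx-null replicates. At 1440364_a_at the values were 9.89, 9.97 and 9.51 against 10.13, 9.89 and 9.92. Wild-type replicate 3 was lowest and Hopx-null replicate 1 highest at both, and the differences were 0.09 (95% interval -0.25 to 0.43) and 0.19 (95% interval -0.15 to 0.54). Of 10 measured genes of lysine breakdown and acyl-CoA synthesis, 8 were higher and 2 lower, with a median of 0.07 and 0 called. Acss2, which makes acetyl-CoA from acetate, differed by 0.38 (SE 0.24), and Aldh7a1, a step of lysine breakdown, by 0.22 (SE 0.10) without overlap.

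**Figure D3:**
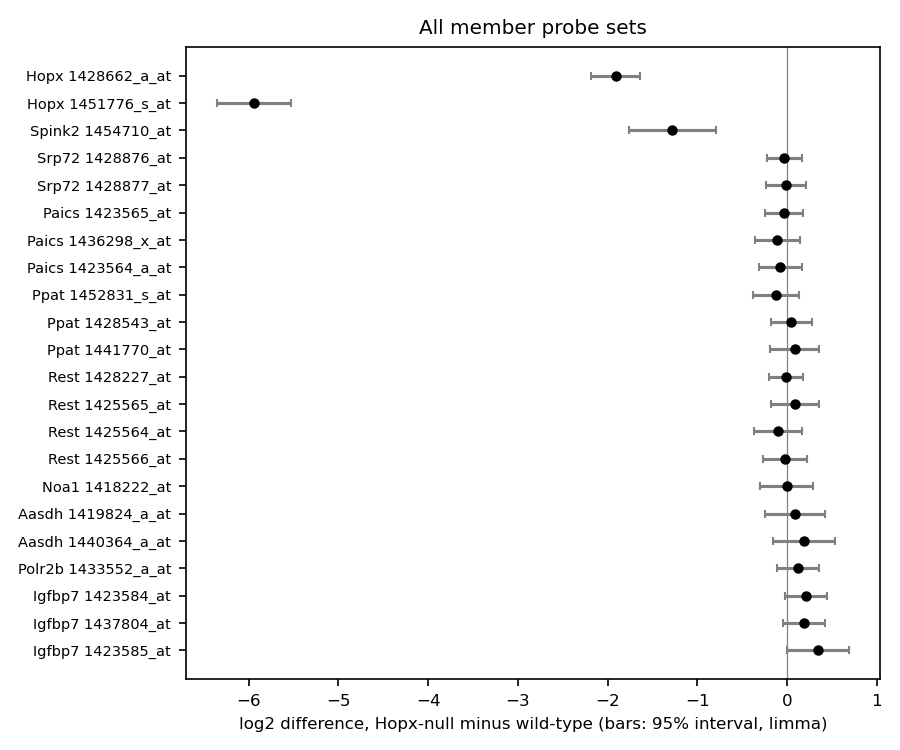
Log2 difference between Hopx-null and wild-type lungs (x axis) at each of the 22 probe sets, with 95% intervals from limma. The intervals of both Hopx probe sets and of Spink2 lie below 0, and those of the other 19 include 0.

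The comparison was widened to 20 measured genes on each side of Hopx, each represented by its brightest probe set, with the order taken from RefSeq. Thegl, which lies between Srp72 and Hopx, is the only one among the nearest 5 on either side that is not one of the 9 neighbours, and it differed by -0.10 (95% interval -0.88 to 0.68) at a mean level of 4.40. Of the 40 genes other than Hopx, 19 were higher and 21 lower, 0 were called by limma, against 0.0055% of all genes, and 2 had an unadjusted p under 0.05, against 4.54% of all genes. The groups did not overlap at 8 of the 40 genes (20%), against 10.5% of 18193 genes. The median absolute difference of the 40 genes was 0.11, against 0.097 over all genes. Among the genes that are not neighbours described above, the smallest unadjusted p-values belonged to Cenpc1, a centromere protein, Uba6, a ubiquitin-activating enzyme, and Srd5a3, which acts in protein glycosylation. Cenpc1 read 8.62, 8.66 and 9.09 in wild-type and 8.56, 8.41 and 8.32 in Hopx-null replicates and differed by -0.36 (SE 0.15). Uba6 differed by -0.37 (SE 0.16) with overlap, and its 4 other probe sets gave -0.53 to 0.12. Srd5a3 differed by 0.24 (SE 0.11) without overlap at its brightest probe set, and with overlap at its 4 others. Each of these 3 genes had a limma adjusted p of 0.878.

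**Figure D4:**
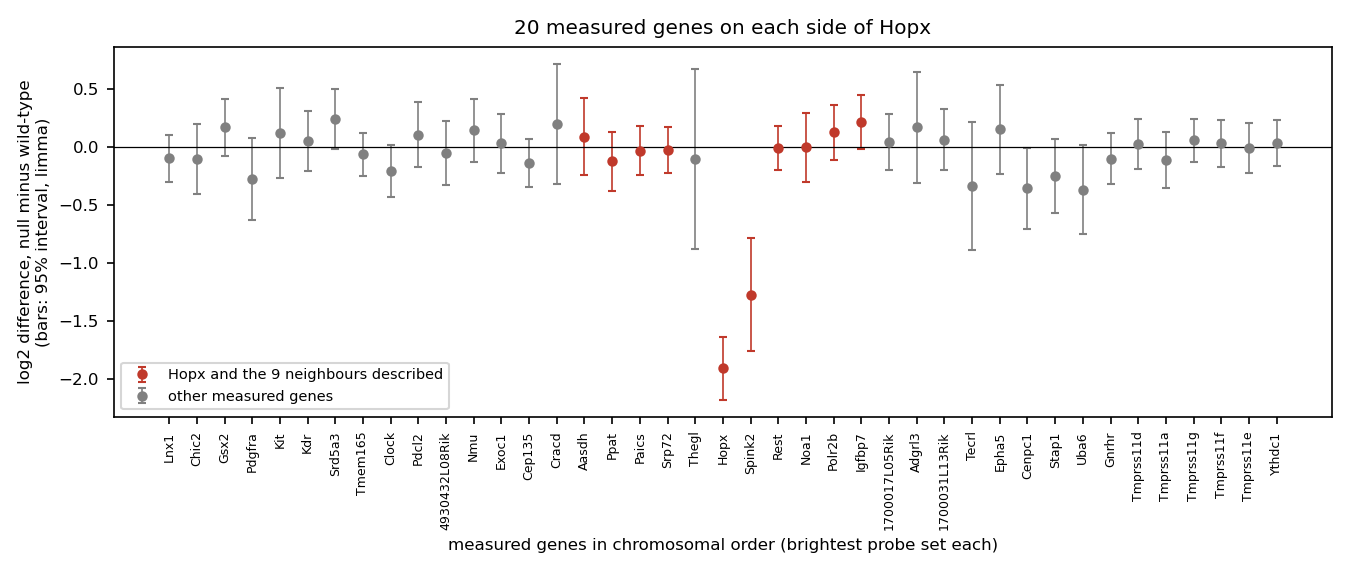
Log2 difference between Hopx-null and wild-type lungs (y axis, bars 95% interval from limma) of Hopx and 20 measured genes on each side, in chromosomal order, each at its brightest probe set. Hopx at -1.91 and Spink2 beside it at -1.28 stand below the other genes, which lie between -0.37 and 0.24.

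Genes with values most like those of Hopx over the 6 lungs were found by the root-mean-square distance between values centred on their mean, over 34943 probe sets of other genes. At 1428662_a_at the nearest was Cuedc1 (distance 0.32 in log2 units), which read 8.02, 7.30 and 7.86 in wild-type and 5.68, 5.97 and 6.14 in Hopx-null replicates and differed by -1.80 (SE 0.21, limma adjusted p = 0.878). Spink2 followed at 0.46 and 2010315B03Rik at 0.47. By this distance no other gene came near Hopx at 1451776_s_at, where its change was larger. The least distant there were Zfp945, Cuedc1 and Rps9 at 2.07, 2.08 and 2.10, against 2.98 for a flat line, and Spink2 ranked 21st. Zfp945 and Rps9 were each high in Hopx-null replicate 1 and low in replicates 2 and 3, so they did not follow genotype.

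Factors known to join Hopx were also examined. Of 14 measured, 7 were higher and 7 lower in Hopx-null lungs, with a median of 0.00 and 0 called. Gata4, a transcription factor, differed by 0.44 (SE 0.26). Srf, serum response factor itself, read 10.34, 10.13 and 10.41 in wild-type and 10.41, 10.82 and 10.74 in Hopx-null replicates, a difference of 0.36 (SE 0.14, limma adjusted p = 0.878), with overlap between the groups. Over the 10 lists of pathways and families, 111 genes other than the neighbours were measured, of which 0 were called by limma, 3 had an unadjusted p under 0.05 (against 4.54% of all genes) and 9 did not overlap between groups (against 10.5%).

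**Figure D5:**
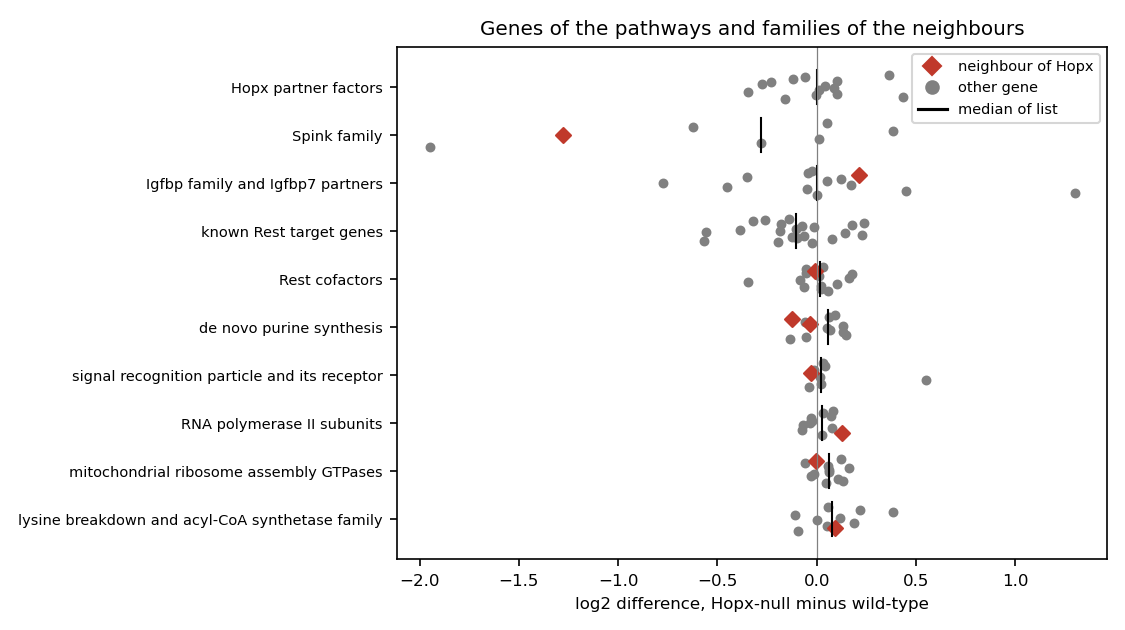
Log2 difference between Hopx-null and wild-type lungs (x axis) of each measured gene in the 10 pathway and family lists, with neighbours of Hopx as diamonds and the median of each list as a vertical line. List medians lie between -0.28 for the Spink family and 0.07 for the lysine and acyl-CoA list.

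The arrays were alike in their overall values, with correlations of 0.991 to 0.995 within a genotype and 0.989 to 0.995 between genotypes. Lung markers were present in all 6 lungs: Sftpc read 13.72 to 13.82 and Pdpn 11.69 to 12.67. Nkx2-1 read 7.62, 7.38 and 7.71 in Hopx-null and 7.77, 7.81 and 7.82 in wild-type replicates. Cartilage markers varied between lungs: Acan was at 8.77 and 9.02 in replicates 2 and 3 of the wild type, against 5.44 to 6.84 in the other 4 lungs, and 9 of 10 cartilage genes were lower in Hopx-null lungs. The heart gene Myh6 read 11.39 to 12.13, and the liver gene Alb 4.80 to 6.09. Of the other marker lists, type II alveolar cell genes were higher in 9 of 11, lung identity genes in 6 of 10, heart genes in 7 of 8 and liver genes in 3 of 7, and 0 were called in each. Each of the 4 sex-linked genes had an unadjusted p under 0.05, and 0 were called. Eif2s3y on the Y chromosome was at 11.72 and 11.56 in replicates 2 and 3 of the wild type, against 2.88 to 3.13 elsewhere, and Xist was at 6.43 and 5.84 there, against 12.22 to 12.68 elsewhere.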

How the data were processed

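RNA from 6 lungs was measured on 1 array each. The labels' protocols name Trizol for the extraction and a poly(T) primer for the cRNA. The submitters' processing notes list RMA and Partek 6.6 without saying what each did. The deposited values were read as log2, the base being inferred from their range and from RMA. Equalised arrays hide any shift common to most transcripts.

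Of 45101 probe sets, 64 controls were left out and 45037 were fitted without a filter in limma 3.58.1 (R 4.3.3, lmFit and eBayes), Hopx-null against wild-type, with Benjamini-Hochberg adjustment over all and a threshold of 0.05. The annotation names 1 gene for 34945 probe sets. For lists and for the order of genes on the chromosome, the probe set with the highest mean stood for each of 18193 genes. The number of arrays limits the precision. The members, the 22 gene lists, the named genes and the alternatives were chosen with earlier results of these data known. Named were all members, the 3 genes with the smallest p near Hopx, the 2 largest differences in each of the 10 pathway lists, the 3 genes most like each Hopx probe set, and fixed tissue markers. Of 256 list entries 232 were measured. The fit was tested on simulated data. The alternatives were repeated quantile normalization, median centring, a filter on dim probe sets, trend and robust options, weights for arrays, a block for the replicate number, Y-linked signal as a covariate, and each lung left out. RefSeq sequences and gene order come from GRCm38.p6.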

Additional observations from a re-analysis of the deposited data

How the results depend on the processing

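Hopx at 1451776_s_at stayed called under all 13 alternatives, with differences from -6.24 to -5.78. At 1428662_a_at the call was lost with the replicate block (-1.91, limma adjusted p = 0.299) and with Y-linked signal as covariate (-2.01, limma adjusted p = 0.392), and leaving out 1 lung gave -1.99 to -1.84. Both settings left 1 called probe set among all and 1 among the members. With 1 lung left out, the counts were 1 to 23 over all probe sets (23 when wild-type replicate 1 was left out, 12 when it was Hopx-null replicate 1) and 1 to 2 among the members. The count of neighbour probe sets without overlap ran from 4 to 9, reaching 9 without wild-type replicate 2, where 23.5% of all probe sets did not overlap. With quantile normalization repeated it was 3, since 1423585_at of Igfbp7 then overlapped. No neighbour, none of the 20 genes on each side of Hopx and no gene of the 10 pathway lists was called under any alternative run. The marker lists were not counted under the alternatives.

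Whether lungs of the same replicate number belong together could not be decided from the values. Deviations of same-numbered lungs correlated at -0.096, -0.12 and 0.18, and not every lung correlated best with the lung of its own number. Each deviation was taken from the mean of the few lungs of its genotype, which ties the deviations to each other.

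Of 256 neighbour differences recomputed, 22 changed sign, all of them small. With Y-linked signal as covariate, Paics became 0.031 at 1436298_x_at and 0.033 at 1423564_a_at, Rest -0.011 at 1425565_at and 0.0058 at 1425566_at, and Noa1 0.11. Rest became 0.0016 at 1428227_at with quantile normalization repeated and 0.019 at 1425566_at with array weights. With 1 lung left out, the ranges that crossed 0 were -0.073 to 0.0040 and -0.052 to 0.045 for Srp72, -0.080 to 0.021 (1423565_at) and -0.13 to 0.0056 (1423564_a_at) for Paics, -0.015 to 0.094 (1428543_at) and -0.017 to 0.14 (1441770_at) for Ppat, -0.032 to 0.017 (1428227_at) and -0.10 to 0.045 (1425566_at) for Rest, -0.097 to 0.083 for Noa1, and -0.0067 to 0.19 for Aasdh (1419824_a_at).

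Spink2 and the dim probe sets of Rest and Ppat lie below the median of all probe sets, so the filter gave them no value. At these levels background limits how well a difference is measured.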
